A study of Rattus norvegicus with 6 samples.

Results

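Cytochrome P450 enzymes of families 1 to 4 were followed across the 6 arrays of a study of iron deprivation in the rat. The members are the 62 genes, in 23 subfamilies, whose symbol in the authors' table starts with Cyp1 to Cyp4 and a subfamily letter, out of 19958 genes on the array. They were measured by 77 probes, and each of the 13 genes with several probes is represented by the probe with the highest mean. The arrays hold RNA of Wistar rats (called mice in part of the labels) fed a purified AIN-93G diet with iron or without it for 4 weeks, from liver and from kidney, and of FAO cells, a rat liver cell line, left untreated or given 100 µM deferoxamine, an iron chelator, for 24 h. Each of the 6 groups is 1 array of RNA pooled from 6 animals or 3 cultures, so there is no replicate check and no p-value. The labels give neither the sex nor the age of the animals, and all animals, iron-fed ones included, were on the purified diet.

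P450 enzymes are membrane-bound monooxygenases that carry iron in a heme group and take electrons from P450 reductase, encoded by Por. Families 1 to 3 are known for oxidising drugs, dietary chemicals and steroids in liver, and family 4 for hydroxylating fatty acids in liver and kidney. Many of their genes are known to be switched by ligand-binding receptors: the aryl hydrocarbon receptor for Cyp1, the constitutive androstane and pregnane X receptors for Cyp2b and Cyp3a, and PPARα for Cyp4a.

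Values are scaled signals on a linear scale: each array was scaled to a common 75th percentile, and signals can be compared between arrays for 1 gene but not between genes, whose probes differ. To count as well above background, a gene needed every spot of its probe to be so on that array. Differences subtract the control's log2 value from the treated one's, and ± is a standard error from repeated spots, pooled over probes of similar signal, which covers spot noise only and says nothing of animals or cultures. A gene is called when the difference is at least 2-fold. Where only 1 of the 2 arrays was well above background the difference is a bound, written as at least N-fold. Such a bound holds for the main processing only and carries spot noise too.

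Detection differed by source. In liver 41 members (66.13%) were well above background on the control diet and 43 (69.35%) on the iron-free diet, against 43.4% and 51.6% of all genes. In kidney the counts were 20 (32.26%) and 19 (30.65%), against 41.43% and 44.6% of all genes. Untreated and deferoxamine-treated FAO cells had 28 (45.16%) and 27 (43.55%), against 51.14% and 51.42%. There were 14 members above background on all arrays and 16 on none. The 16 include Cyp1a1 and Cyp1b1, 2 well-known targets of the aryl hydrocarbon receptor, as well as Cyp2a3, Cyp2g1, Cyp2u1, Cyp2w1, Cyp4b1 and Cyp4x1. No probe carried the symbol of Cyp2b1, which is not analysed here. A further 13 members were above background only in liver, among them Cyp1a2, Cyp2a2, Cyp2c12, Cyp2d3, Cyp3a2 and Cyp3a23/3a1 (now named Cyp3a23-3a1), and Cyp4f37 and Cyp4v3 only in FAO cells. The lowest signal that counted differed between arrays. Control first, it was 45.0 and 37.5 in liver, 105 and 92.6 in kidney, and 21.3 and 20.2 in FAO cells. The Cyp4v3 signal in deferoxamine-treated FAO cells (69.1) lies under both kidney values, so dim genes could count in FAO cells and not in kidney.

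The labelled tissues were checked against 8 hepatocyte and 8 kidney tubule markers. All 8 hepatocyte markers were at least 2-fold higher in control liver than in control kidney, and all 8 tubule markers were lower in liver. All 8 hepatocyte markers were well above background in FAO cells, with a summed signal of 151660 in untreated cells against 1509300 in control liver. Control liver had 45 of its 264 spot blocks with departing spots, deferoxamine-treated FAO cells 12, control kidney 2 and the others none. Where a P450 gene's diet difference named here moved by over 0.2 without such spots, that value is given too. Genes of the other lists were not recomputed without such spots.

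**Figure D1:**
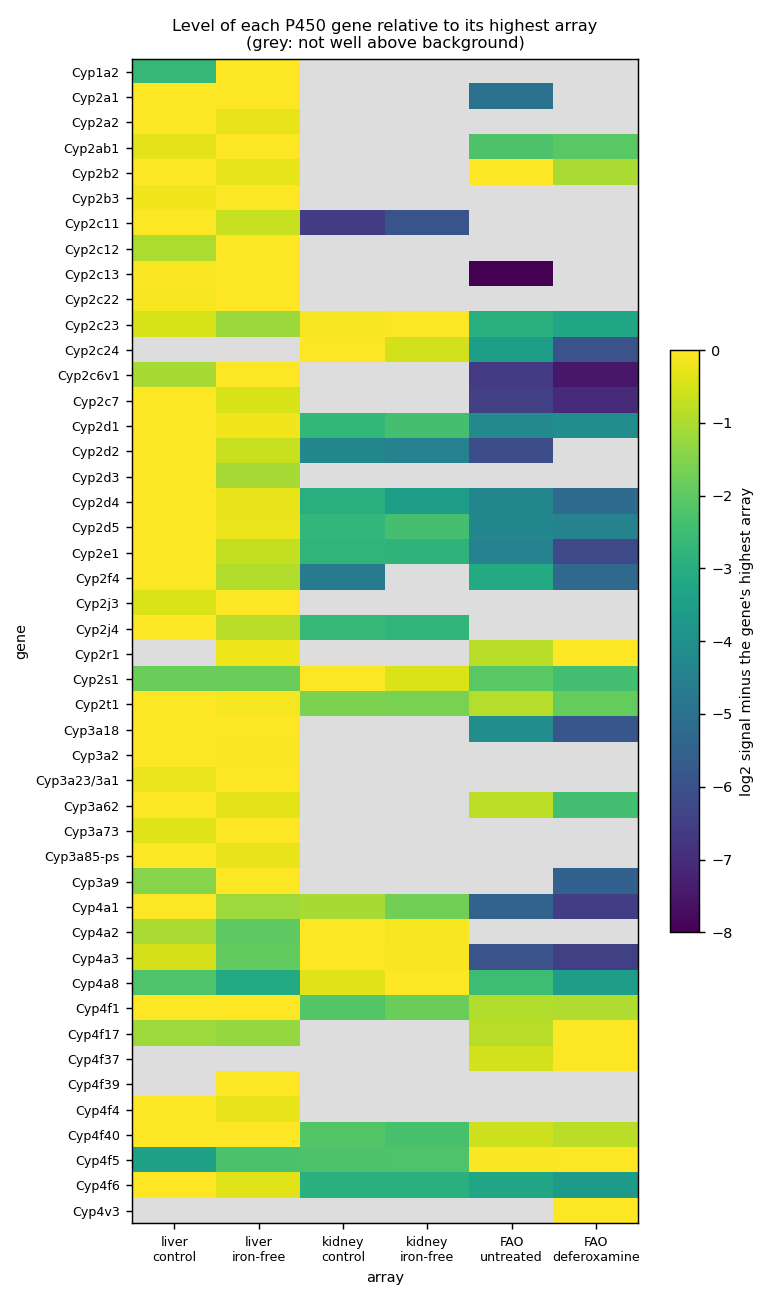
Log2 scaled signal of each of the 46 P450 genes above background on some array (rows), minus that gene's own highest array, on the 6 arrays (columns); grey cells were not well above background. Most Cyp2c, Cyp2d and Cyp3a genes are highest on the liver arrays, and Cyp4a2, Cyp4a3 and Cyp4a8 on the kidney arrays.

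Liver and kidney on the iron-containing diet set the starting levels. Of 42 members with a value, 34 were at least 2-fold higher in control liver than in control kidney, where 14.9% of all genes were, and 5 were lower, where 26.6% of all genes were. The median difference was 2.84 against -0.21 over all genes. Of these values 23 are bounds, because most members were not well above background in kidney.

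All 7 Cyp3a genes, steroid and drug oxidases, were at least 5.27-fold higher in liver; for 6 of them the bound was 6.20-fold or more, and Cyp3a2 was at least 424-fold higher. The 5 Cyp2d genes were 6.49-fold or more higher in liver by their brightest probes, and the second Cyp2d4 probe gave 2.40-fold. Cyp2c11, a steroid 16α- and 2α-hydroxylase known as the main P450 of male rat liver, read 201551 in liver on the control diet against 2105 in kidney, a 95.8-fold difference. Cyp2c13 and Cyp2b3 were the farthest apart as bounds, at log2 10.05 and 10.07. Cyp2c12, known as the female-predominant counterpart, was measured at 432 in control liver.

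The 5 members that were higher in kidney were Cyp2c24, Cyp2s1, Cyp4a2, Cyp4a8 and Cyp4f5. Cyp4a8 had 8898 in control kidney against 2463 in control liver, 3.61-fold, and Cyp2c24 was at least 50.5-fold higher in kidney. Cyp4a2, an arachidonic acid ω-hydroxylase of the kidney, had 64402 in kidney and 31618 in liver, 2.04-fold. Cyp4a3 (33613 and 23526) and Cyp2c23, an arachidonic acid epoxygenase (83981 and 63132), did not reach 2-fold. Both Cyp4a2 at -1.03 ± 0.29 and Cyp4f5 at -1.19 ± 0.55, liver minus kidney, lie within 1 spot standard error of the 2-fold line, and the count of 5 came to 3 under 4 of the alternatives. A second Cyp4a8 probe was not well above background in liver and was at least 104-fold brighter in kidney, so the brighter probe's liver signal is not shared by it.

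Untreated FAO cells had lower signals than control liver for most members. Of 43 with a value, 32 were at least 2-fold lower, where 27.8% of all genes were, and 3 were higher, where 27.7% of all genes were. The median was -4.93 against 0.18 over all genes. Of the 43, 18 are bounds, and the 25 measured on both arrays had a median of -3.26. Cyp2c11 was lower in FAO cells by a log2 bound of -13.21, Cyp3a2 by -11.03 and Cyp4a2 by -10.54. Cyp2e1, which oxidises ethanol and other small molecules, had 2556 in FAO cells against 55488 in liver, 21.7-fold lower. The 3 higher genes were Cyp4f5, 10.4-fold, and Cyp2c24 and Cyp4f37, each at least 4.29-fold; the second Cyp2c24 probe read 54.4 in FAO cells and 63.1, not well above background, in liver, which gives no fold. Cyp2b2, a phenobarbital-inducible P450, had 2570.2 against 2541 in liver by its brightest probe (0.02 ± 0.27), but 473 against 2814 by its second (-2.57 ± 0.29), which is 5.95-fold lower. By their brightest probes Cyp4a8 (-0.26 ± 0.27), Cyp3a62 (-0.78 ± 0.29), Cyp4f1 (-0.93 ± 0.27) and Cyp4f40 (-0.61 ± 0.27) stayed within 2-fold.

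Deferoxamine in FAO cells is the first of 3 treated comparisons. Among 30 members with a value, 12 were at least 2-fold lower, where 6.44% of all genes were, and 1 was higher, where 4.05% of all genes were. The median over the members was -0.53, against 0.03 over all genes tested. Of the 30, 25 were measured on both arrays and 5 are bounds, and 19 of the 25 measured values were below 0. Leaving out the spots in departing blocks, the share of all genes that were lower was 3.86%, and the same 12 members were lower.

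Among the Cyp2 genes, Cyp2a1, a testosterone 7α-hydroxylase, had 204 in untreated cells and 25.7, not well above background, after deferoxamine, at least 7.91-fold lower. Its log2 value was -2.98 with a spot standard error of 0.91, and ranged from -3.01 to -2.02 over the processing alternatives. Cyp2e1 was measured by 9 kept spots on each FAO array and had 2556 untreated and 734 with deferoxamine (-1.80 ± 0.12). No spot of one array overlapped the other's, as the plot of single spots shows. Cyp2f4, a lung and liver P450 that oxidises naphthalene, had 668 and 149.7 (-2.16 ± 0.44). Cyp2d2, the debrisoquine hydroxylase of rat liver, had 117 and then 27.7, not well above background, at least 4.22-fold lower. Its log2 value was -2.08 with a spot standard error of 0.92, and ranged from -2.10 to -1.14 over the alternatives. Cyp2c24 went from 193 to 37 (-2.39 ± 1.16) on 1 spot per array, and its second probe was lower too, at least 2.70-fold.

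Cyp2b2 had 2570.2 untreated and 1280.0 with deferoxamine (-1.01 ± 0.27), and its second probe gave -1.45. Cyp2t1 had 828 and 411 (-1.01 ± 0.39). Both lie at the 2-fold line and fell short of it under 5 and 6 of the 9 processing alternatives. Cyp2c13 was at least 2.13-fold lower from 43 untreated, near background, and lost the call under quantile normalization (-0.42) and normexp background correction.

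Other Cyp2 genes of FAO cells stayed within 2-fold by their brightest probes. Cyp2d4 had 204 and 109.9 (-0.90 ± 0.45), and its second probe was at least 2.33-fold lower. Cyp2c6v1 had 576 and 321 (-0.84 ± 0.56), and a probe described as a Cyp2c6-like transcript read -1.12. Cyp2d1 (3921 and 4362, 0.15 ± 0.24) and Cyp2d5 (4349 and 3979, -0.13 ± 0.24) stayed level. Cyp2c23 had 11496 and 9103 (-0.34 ± 0.07), and the 3 probes of Cyp2c7 gave -0.54, -0.61 and -0.55. Cyp2r1, a vitamin D 25-hydroxylase, had 71.6 and 130.4 (0.87 ± 0.57).

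In the Cyp3a subfamily, Cyp3a18 had 803 untreated over 10 kept spots and 233 with deferoxamine over 9 (-1.78 ± 0.24), and Cyp3a62 had 322 and 106 (-1.60 ± 0.53). Cyp3a9, a P450 of liver and extrahepatic tissue, differed from both in direction: it was not well above background in untreated cells (13.3) and reached 39.4 with deferoxamine, at least 1.85-fold higher and thus under the threshold. The other 4 members of the subfamily were not well above background on either FAO array.

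In family 4, Cyp4a8 had 2054 untreated and 988 with deferoxamine (-1.06 ± 0.27) by its brightest probe, while its second probe was not well above background on either FAO array (5.36 and 4.17). Cyp4a1, the lauric acid ω-hydroxylase known as a PPARα target, had 192 and 88.4 (-1.12 ± 0.53). Cyp4a3 had 539 and 374 (-0.53 ± 0.39) and stayed within 2-fold. Cyp4a1 lost its call under quantile normalization (-0.54) and normexp. None of the 6 Cyp4f genes measured in FAO cells was called: Cyp4f1, a leukotriene B4 ω-hydroxylase, had 31960.5 and 31501 (-0.02 ± 0.15), Cyp4f5 had 1219 and 1265, and the largest difference was that of Cyp4f17 (207 and 379, 0.87 ± 0.40). Cyp4v3 was the 1 higher gene, from 27.9, not well above background, to 69.1, at least 2.48-fold, and at normexp it was not called (0.81). The spot standard error of its log2 value was 1.16.

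**Figure D2:**
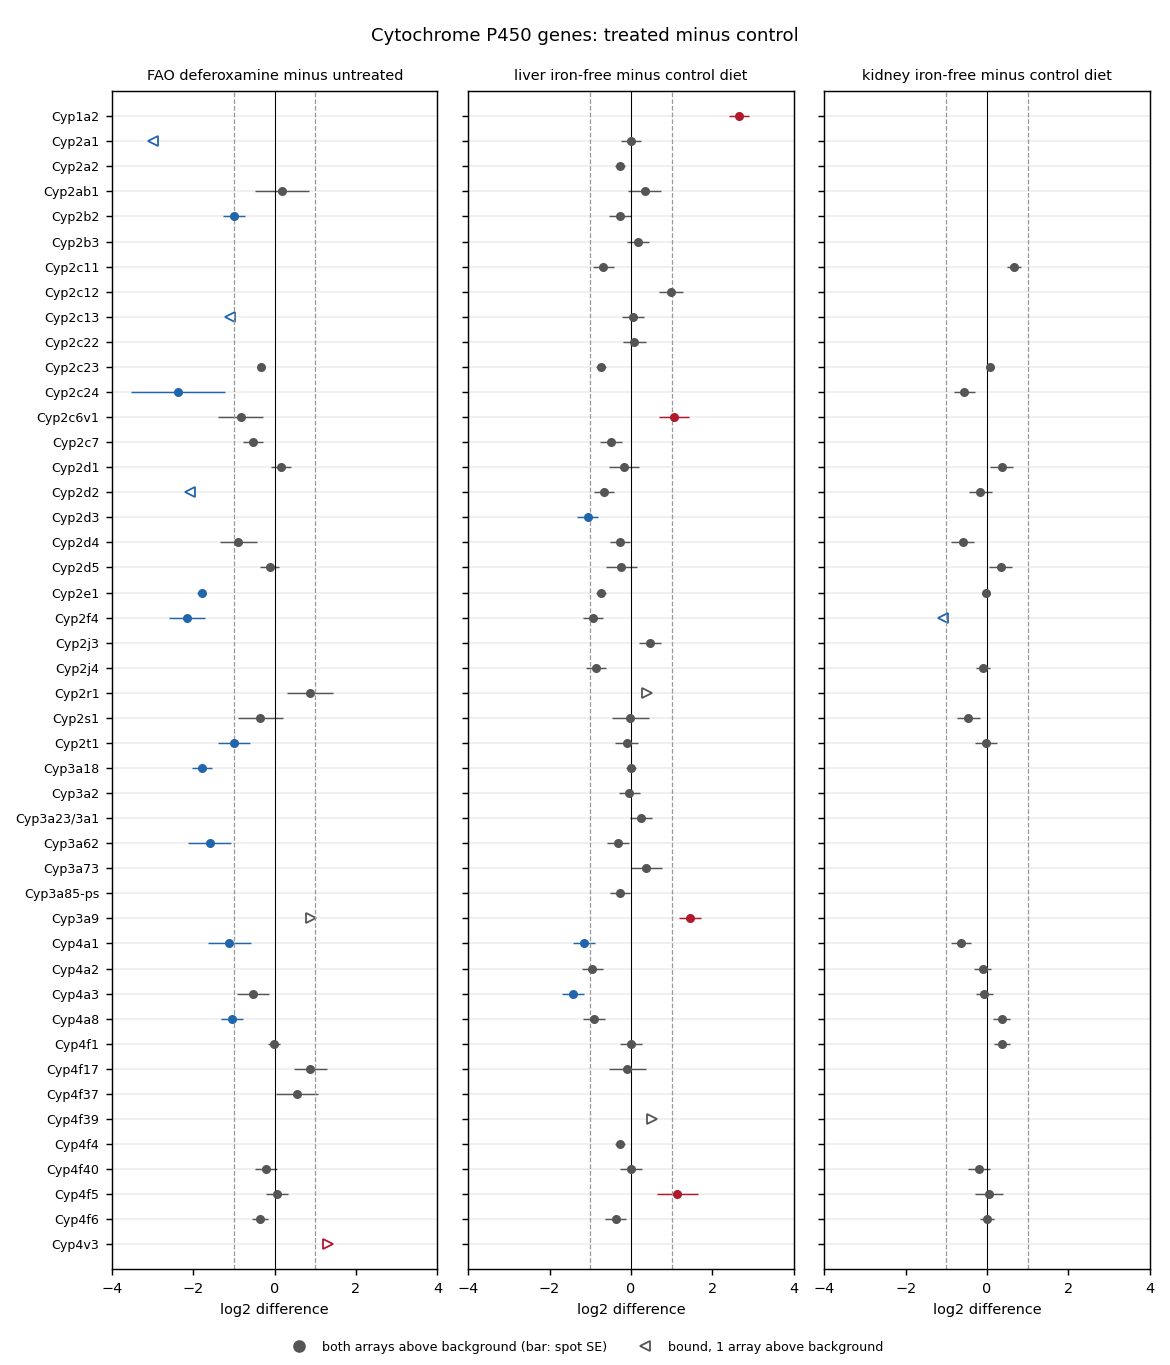
Treated minus control log2 difference (horizontal axis) of the 46 P450 genes above background on some array (rows) in FAO cells, liver and kidney; filled points were measured on both arrays with bars of 1 spot standard error, open triangles are bounds, and dashed lines mark 2-fold. FAO cells have 12 genes past the lower line, liver has 4 past the upper and 3 past the lower, and kidney has 1 past the lower.

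In liver, the iron-free diet went with differences in both directions. Among 43 members with a value, 4 were at least 2-fold higher, where 6.52% of all genes were, and 3 were lower, where 3.01% of all genes were. The member shares are 9.30% and 6.98%. The median was -0.10 against 0.02 over all genes, and 36 members stayed within 2-fold. The split depends on the scaling. With arrays scaled to the median of detected probes, which put the median of all genes at 0.59, it was 7 higher and 0 lower. Under that scaling 20.4% of all genes were higher and 0.752% lower.

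Cyp1a2, which oxidises caffeine and aromatic amines, had the largest difference: 3812 in control liver and 24085 in iron-free liver, 6.32-fold (2.66 ± 0.25). Its spots read 5593 and 2598 on the control array and 25793 and 22489 on the iron-free array, and the gene's own spot standard error was 0.56. Without the 1 control spot in a departing block the difference was 3.23, and over the alternatives it ranged from 2.55 to 3.24. Cyp1a2 was not well above background on any kidney or FAO array. Of the 6 other aryl hydrocarbon receptor targets on the array, 4 had a value in liver: Nqo1, a quinone reductase, was at least 2.61-fold higher, while Ugt1a6 (-0.54 ± 0.27), Tiparp (-0.41 ± 0.40) and Gsta2 (0.20 ± 0.27) stayed within 2-fold.

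The Cyp1a2 promoter is shown because the gene had the largest diet difference of all members. The window is the 250 bases before the RefSeq start on GRCr8, chr8:66978150-66978399, minus strand, and capitals mark a nuclear receptor half-site (AGGTCA, here on the opposite strand as TGACCT, from base -77) and a TATA box (TATAAA, from base -39).
Cyp1a2: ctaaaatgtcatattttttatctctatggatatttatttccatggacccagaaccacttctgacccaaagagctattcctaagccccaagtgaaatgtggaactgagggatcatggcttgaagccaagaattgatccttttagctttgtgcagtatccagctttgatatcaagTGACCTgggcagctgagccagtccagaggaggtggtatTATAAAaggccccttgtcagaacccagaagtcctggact
The core letters of an aryl hydrocarbon receptor element, GCGTG, were searched on both strands in windows of 300 bases, 250 before and 50 after the start. They occurred in 31.1% of 27457 RefSeq promoters and in 12 of the 51 member promoters (23.5%), and Cyp1a2 was not among the 12. TATAAA was in 14.3% of all promoters and in 15 of the 51 (29.4%). AGGTCA was in 15.7% and in 16 of the 51 (31.4%). CAAAGTCCA, an HNF4 element, was in 0.375% and in 2 of the 51, Cyp3a2 and Cyp3a23/3a1. ACGTG, the core letters of a hypoxia response element, was in 19.7% and in 5 of the 51 (9.8%), among them Cyp3a9 and Cyp2j4. ACGTG and GCGTG differ only in their first letter, and a match describes letters, not a site that a factor is known to bind. Bases outside the windows were not searched, so the lack of a match says nothing of elements farther from the start.

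Cyp3a9 had 651 in control liver and 1786 in iron-free liver, 2.74-fold (1.46 ± 0.27), and 1.17 without its control spot in a departing block. It was the only Cyp3a gene called in liver. Cyp3a18 (13556 and 13610.2 over 10 spots), Cyp3a2 (44536 and 43447), Cyp3a23/3a1 (17735 and 20970.4), Cyp3a62 (554 and 444), Cyp3a73 and Cyp3a85-ps lay between -0.32 and 0.38. Without its 1 control spot in a departing block, however, Cyp3a2 read -0.87, and the only control spot of the Cyp3a73 probe lay in such a block, so that it had no value without it (its second probe read -0.28). Cyp3a18 and Cyp3a62, which were lower in FAO cells after deferoxamine, thus had liver values of 0.01 ± 0.12 and -0.32 ± 0.28 on the diet.

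Cyp2c6v1, a drug oxidase of the Cyp2c subfamily, had 27706 and 57837 (1.06 ± 0.38) on 1 spot per array, but its second probe gave 0.14. Probes described as a Cyp2c6-like transcript read 1.07 and -0.55. The call thus holds for 1 of the 2 probes, and GRCr8 places 2 Cyp2c6 pseudogenes in the same run of Cyp2c genes. Cyp4f5 had 118 in control and 259 in iron-free liver (1.14 ± 0.50), a low signal, and normexp gave 0.44. Cyp2c12, with 432 and 857 (0.99 ± 0.29), lay just under the line.

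By their brightest probes all 4 Cyp4a genes had lower signals in iron-free liver, with a median of -1.05, and 2 of them passed 2-fold. Cyp4a3 had 23526 on the control diet and 8798 on the iron-free diet (-1.42 ± 0.27), and Cyp4a1 had 8352 and 3746 (-1.16 ± 0.27). Cyp4a2 had 31618 and 16402 (-0.95 ± 0.27) and Cyp4a8 had 2463 and 1307 (-0.91 ± 0.28), both just under 2-fold. The second Cyp4a8 probe was not well above background on either liver array (39.3 and 21.5), so the liver value of Cyp4a8 rests on 1 probe. Control spots of Cyp4a3 read 31166 and 17759, both above the iron-free spots at 8388 and 9228. Scaled to the median of detected probes the 4 differences were -0.84, -0.58, -0.37 and -0.33 in the same order, none past 2-fold, with all genes' median at 0.59. In kidney of the same diet groups none of the 4 passed 2-fold: Cyp4a1 had 4049 and 2589.6 (-0.64 ± 0.25), Cyp4a2 64402 and 59563 (-0.11 ± 0.20), Cyp4a3 33613 and 32033 (-0.07 ± 0.20) and Cyp4a8 8898 and 11403 (0.36 ± 0.20). The second Cyp4a8 probe read -0.18 in kidney, so the 1 positive sign holds for 1 of its 2 probes. The difference between the tissues was not tested. Ppara itself had 148 in control and 128 in iron-free liver (-0.21 ± 0.54).

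**Figure D3:**
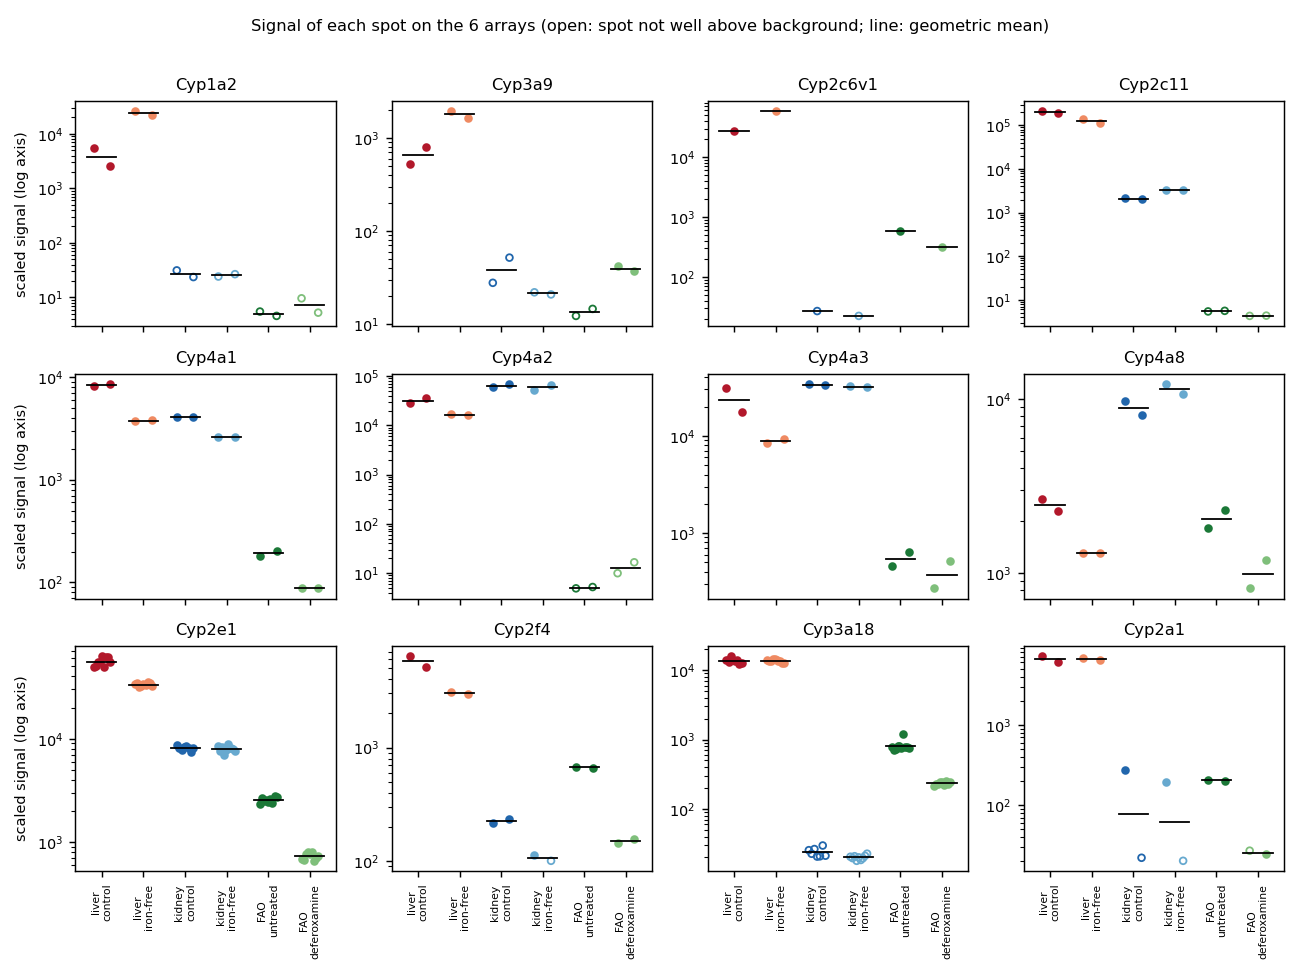
Scaled signal (log axis) of every spot kept for 12 P450 genes on the 6 arrays, with open points for spots not well above background and a line at the geometric mean; spots repeat 1 RNA pool and are not samples. Cyp1a2 and Cyp3a9 stand higher on the iron-free liver array, the Cyp4a genes lower, and 1 of the Cyp2a1 spots is above background on both kidney arrays while the other is not.

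Promoters of 3 Cyp4a genes are shown because these genes are neighbours on the chromosome; in iron-free liver Cyp4a3 was at least 2-fold lower and the other two were just under it. In GRCr8 gene order Cyp4x1, Cyp4a8, Cyp4a2, Cyp4a3, Cyp4a1 and Cyp4b1 form a run that also holds Cyp4a2l1 and 3 Cyp4a pseudogenes. The 250 bases before the start are at chr5:134170909-134171158 for Cyp4a2, chr5:134352237-134352486 for Cyp4a3 and chr5:133970227-133970476 for Cyp4a8, all on the minus strand, and capitals mark AGGTCA.
Cyp4a2: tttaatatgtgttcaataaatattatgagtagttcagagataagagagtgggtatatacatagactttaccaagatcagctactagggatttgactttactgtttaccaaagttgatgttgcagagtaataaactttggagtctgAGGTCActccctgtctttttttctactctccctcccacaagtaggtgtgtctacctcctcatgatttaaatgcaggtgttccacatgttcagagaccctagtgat
Cyp4a3: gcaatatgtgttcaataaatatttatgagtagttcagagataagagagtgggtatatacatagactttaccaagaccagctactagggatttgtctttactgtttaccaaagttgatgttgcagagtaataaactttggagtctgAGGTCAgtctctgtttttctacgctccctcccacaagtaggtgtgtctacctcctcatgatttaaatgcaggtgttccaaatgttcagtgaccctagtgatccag
Cyp4a8: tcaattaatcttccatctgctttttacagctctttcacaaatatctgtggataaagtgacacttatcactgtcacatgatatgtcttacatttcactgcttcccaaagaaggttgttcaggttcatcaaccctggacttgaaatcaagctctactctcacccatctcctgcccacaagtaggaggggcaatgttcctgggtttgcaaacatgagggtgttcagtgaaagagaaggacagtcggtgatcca
Windows of Cyp4a2 and Cyp4a3 were 93.1% identical, the highest of 87 pairs within subfamilies, and both hold the half-site from base -105. The Cyp4a8 window holds no match. This identity is that of promoter windows, and whether the probes of these genes share signal was not tested. The differences of Cyp4a2 and Cyp4a3 were 0.47 apart in liver, and in FAO cells Cyp4a3 was above background at 539 while Cyp4a2 was not (5.05).

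The Cyp2d genes, which include the rat counterparts of human CYP2D6, hold a pair with similar differences, Cyp2d1 and Cyp2d5. Whether the probes of this pair read each other's RNA was not tested. Cyp2d1 had 73446 and 65477 in control and iron-free liver, and Cyp2d5 had 84988 and 72134. Their differences lay 0.28 apart in FAO cells treated with deferoxamine and at most 0.071 apart in the other 4 comparisons. Cyp2d3 stood apart: it had 7832 and 3737 in liver (-1.07 ± 0.25), was not well above background in kidney or FAO cells, and 1 of its control spots lay in a departing block. Without that spot its difference was -0.43, and its own spot standard error was 0.62. Cyp2d2 had 8061 and 5095 (-0.66 ± 0.25). Cyp2d4, the Cyp2d gene of brain, had 4080.1 and 3404 (-0.26 ± 0.25), and its second probe read 0.30.

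Promoters of Cyp2d1 and Cyp2d3 are shown as the closest Cyp2d pair, with 88.2% identity of the 300-base windows, whose liver differences were 0.90 apart; without departing spots Cyp2d3 read -0.43 and Cyp2d1 -0.15. Their upstream bases are at chr7:115793431-115793680 and chr7:115802143-115802392 on GRCr8, minus strand, and capitals mark TATAAA on the opposite strand.
Cyp2d1: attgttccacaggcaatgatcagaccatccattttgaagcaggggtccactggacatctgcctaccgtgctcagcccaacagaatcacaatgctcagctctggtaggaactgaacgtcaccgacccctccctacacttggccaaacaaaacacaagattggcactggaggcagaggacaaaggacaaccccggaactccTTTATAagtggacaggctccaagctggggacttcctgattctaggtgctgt
Cyp2d3: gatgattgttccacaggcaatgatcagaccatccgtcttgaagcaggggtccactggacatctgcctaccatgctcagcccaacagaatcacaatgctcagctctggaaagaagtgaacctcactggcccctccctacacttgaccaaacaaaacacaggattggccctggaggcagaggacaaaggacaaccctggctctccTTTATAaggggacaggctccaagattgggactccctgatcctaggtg
The TATA letters start at base -51 in Cyp2d1 and -47 in Cyp2d3, and Cyp2d5 holds them too.

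Several of the abundant Cyp2 genes of liver had lower signals within 2-fold. Cyp2c11 had 201551 and 126066 (-0.68 ± 0.27), Cyp2c23 63132 and 37775 (-0.74 ± 0.12), Cyp2e1 55488 and 33368 (-0.73 ± 0.12), Cyp2f4 5752 and 3016 (-0.93 ± 0.25) and Cyp2j4 6514 and 3577 (-0.86 ± 0.25). The second Cyp2j4 probe read -1.12. Others stayed level: Cyp2a1 had 6555 and 6585, Cyp2c13 111441 and 115708 and Cyp4f1 60772 and 60558 (-0.26 without its departing spot). Cyp2a2 over up to 10 spots per array read -0.28 ± 0.12, Cyp2c7 -0.49 ± 0.27, and Cyp2b2 -0.28 ± 0.27 with 0.43 from its second probe. Cyp2j3 read 0.46 ± 0.27, and -0.33 from its second probe.

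In kidney, 1 of 20 members with a value was at least 2-fold lower on the iron-free diet, where 1.26% of all genes were, and 0 were higher, where 3.11% of all genes were. The median was -0.05 against -0.03 over all genes. The lower gene was Cyp2f4, from 225 to 106.7, not well above background on the iron-free array, at least 2.10-fold, and it did not reach 2-fold under normexp (-0.75) or the median scaling (-0.87). The spot standard error of its log2 value was 0.82. Cyp2c11 had 2105 and 3329 (0.66 ± 0.18), the opposite sign of its liver value. The kidney's epoxygenase Cyp2c23 had 83981 and 87886 (0.07 ± 0.10), Cyp2e1 8153 and 7957 (-0.04 ± 0.10), and Cyp2c24 2274 and 1544 (-0.56 ± 0.26, second probe -0.62). Cyp2d1 and Cyp2d5 read 0.36 ± 0.29 and 0.33 ± 0.29, Cyp4f1 0.36 ± 0.20. Cyp2d4 read -0.60 ± 0.29 and 0.46 from its second probe. For Cyp2a1, 1 spot was above background on both kidney arrays (277 and 193) and the other was not (22.2 and 20.3), so no kidney value was used.

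Genes with a second probe give a measure of how far a value belongs to the probe. In 16 cases, from 11 genes, 2 probes of 1 gene were above background on both arrays of a treated comparison. Their differences lay a median of 0.53 apart and up to 1.06 (Cyp2d4 in kidney), and 8 of the 16 had opposite signs. In 9 of the 16 the gap was over 0.5. Cyp2c7, Cyp2c24 in kidney and Cyp2b3 were at most 0.10 apart. Probe sequences were not used here, so whether probes of close paralogs (in Cyp2b, Cyp2c, Cyp2d, Cyp2j, Cyp3a and Cyp4a) read each other's RNA was not tested, and values there are uncertain between paralogs.

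**Figure D4:**
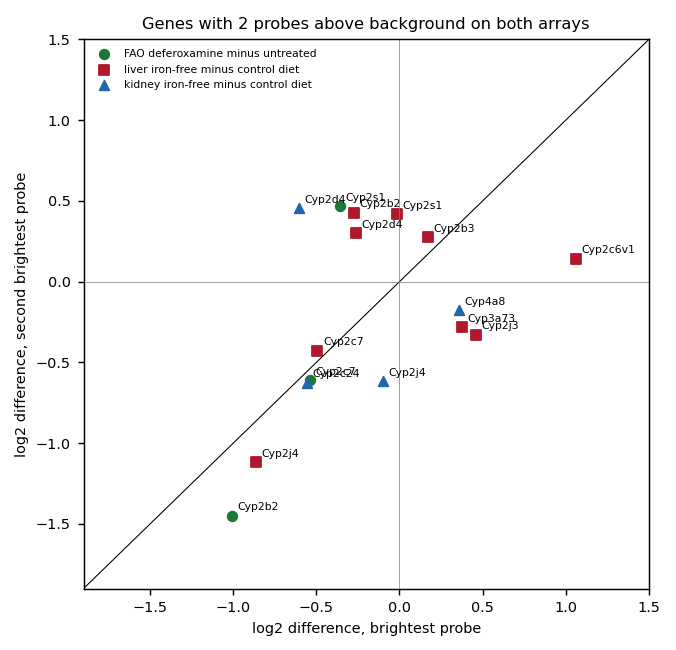
Log2 difference of the brightest probe (horizontal) against that of the second brightest probe of the same gene (vertical) for 16 cases in 3 treated comparisons, with the line of equality. Cyp2c7 lies on the line, Cyp2b2 in FAO cells lies low on both axes, and 8 points lie in the quadrants of opposite sign.

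The genes that supply electrons and heme to P450s did not share 1 direction. In FAO cells 2 of the 10 listed genes passed 2-fold upward and 1 downward, in liver 0 and 0, and in kidney 1 and 0 of 9 with a value. In FAO cells Alas1, the first enzyme of heme synthesis in liver, had 3812 untreated and 9177 with deferoxamine (1.27 ± 0.16), and Hmox1, which degrades heme, had 783 and 2898 (1.89 ± 0.08). Cyb5a, an electron donor, had 5719 and 2634 (-1.12 ± 0.17). In liver Alas1 had 63128 and 36326 (-0.80 ± 0.27) and Por 2521 and 1405 (-0.84 ± 0.28). In kidney Alas1 had 6741 and 14079 (1.06 ± 0.27) and Por 1489 and 874 (-0.77 ± 0.21).

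Among 18 receptors and liver transcription factors, 0 were higher and 2 of 15 with a value were lower in FAO cells (median -0.39), 0 and 4 of 15 in liver (median -0.40), and 0 and 0 of 6 in kidney (median -0.18). The 4 in liver were Nr1h4, the bile acid receptor, with 11595 and 4991 (-1.22 ± 0.38), Nr0b2, the repressor it induces, with 27647 and 10727 (-1.37 ± 0.27), Hnf4a (-1.09 ± 0.58) and Onecut1 (-1.03 ± 0.25). Nr1h4, Hnf4a and Onecut1 lie within 1 spot standard error of the 2-fold line. Values of the listed genes were not recomputed under other scalings. Scaling to the median of detected probes moved the liver value of Cyp4a3 from -1.42 to -0.84. The 2 in FAO cells were Nr0b2, with 6620 and 2909 (-1.19 ± 0.16), and Nr1i3, the constitutive androstane receptor, at least 2.51-fold lower from 50.5. The pregnane X receptor Nr1i2 read -0.67 ± 0.52 in FAO cells and -0.48 ± 0.27 in liver. Of 7 enzymes that act on P450 products, 0 of 6 with a value were called in FAO cells; in liver Ephx1, an epoxide hydrolase (-1.30 ± 0.28), and Ugt2b1, a glucuronosyltransferase (-1.62 ± 0.25), were lower, and in kidney Ephx2 (-1.03 ± 0.31). Other aryl hydrocarbon receptor targets in FAO cells were split, with Tiparp higher (1.48 ± 0.61) and Nqo1 (-1.19 ± 0.25) and Gsta2 (-2.67 ± 0.19) lower.

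Marker genes of other cells differed beside these values. In iron-free liver all 6 erythroid markers were at least 2-fold higher, and their summed signal was 148050 against 44344. Of 6 leukocyte and macrophage markers 3 were higher, with a sum of 13724 against 6845, while 2 of 8 hepatocyte markers were higher and 0 lower (median 0.12). In FAO cells 1 hepatocyte marker was higher and 1, Ttr, was lower (median 0.22). In kidney 2 of 6 erythroid markers were higher and 0 of 8 tubule markers were called. The part of these cells in the P450 values was not tested, and in pooled tissue RNA fewer cells of a type and less RNA per cell cannot be told apart.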

How the data were processed

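RNA of 6 pools was hybridised to 6 one-colour Agilent arrays of design 028279 on 1 slide. Per the file headers, the authors extracted spot intensities with Feature Extraction 10.7.3.1, for a design annotated on rn4. The deposited intensity used here is, per the file headers, the processed signal: linear and background-subtracted. The authors' deposited table also gives a log2 value per probe, which is log2 intensity minus a constant per array, with column medians of -3.44 and -3.31 (liver), -3.33 and -3.28 (kidney) and -4.16 and -4.19 (FAO cells), control first; it served as an alternative.

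Spots flagged as outliers (680 to 1215 of 58717 gene spots per array) were left out, log2 intensities were averaged per probe (30367 probes), and arrays were aligned at the 75th percentile over 9091 probes (29.94%) that were above background everywhere. For a bound, the dim array entered at its lowest detected signal, or at the probe's own signal where that was higher. A gene was called at 2-fold (log2 of 1). The number of arrays and the signal over background limit precision. Comparing and calling were tested on simulated arrays with spot noise only. Chosen probes there were changed by a log2 difference of 2 up or down. Outlier removal, spot averaging, scaling and changes near the 2-fold line were not part of that test. Tools were Python 3.11.15, numpy 2.4.6, pandas 2.3.3, R 4.3.3 and limma 3.58.1 (normexp, offset 50).

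Groups came from titles and treatments. Every member could be named, and those 2-fold different in a treated comparison, with a set of well-known P450 genes, were given in full. Members, lists, tests and alternatives were chosen with earlier results of these data known. Departing spots were sought in blocks of 16 by 16 spots. A block was marked where its repeated spots departed from their own probe's median on the same array by a median of over 0.25 (log2). This definition was chosen after seeing the data. Of the 62 gene identifiers, 59 were in the RefSeq table of GRCr8 and 51 had a promoter, and those sequences and positions are RefSeq's.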

Additional observations from a re-analysis of the deposited data

Results flagged for a closer look

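Cyp2c11 had opposite signs under the same diet contrast in the 2 tissues. In liver it was lower on the iron-free diet by a log2 difference of -0.68 and in kidney it was higher by 0.66, each more than 2 spot standard errors from 0. It was 1 of 18 members measured on both arrays of both tissues. Each tissue has 1 array per diet, so the difference between tissues was not tested. Under the scaling to the median of detected probes the values were -0.10 and 0.86, and under normexp -0.86 and 0.83.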

How the results depend on the processing

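Members' differences and counts, but not those of the other gene lists, were recomputed under 9 alternatives. For a gene with 1 probe, the second-probe alternative used that same probe. Where both arrays were above background, dropping the filter left the value unchanged. In those cases these alternatives repeat the main value and could not lose a call. Of 21 treated calls, 10 were kept under every alternative that gave a value (FAO: Cyp2a1, Cyp2c24, Cyp2d2, Cyp2e1, Cyp2f4, Cyp3a18, Cyp3a62 and Cyp4a8, the last with 8 values because its second probe was not above background; liver: Cyp1a2 and Cyp3a9), 11 were lost under at least 1, and 0 turned to the opposite call. Normexp with the median spot signal was added after seeing the data. In liver, scaling to the median of detected probes gave 7 higher and 0 lower of 43 members (20.4% and 0.752% of all genes) and a median of 0.48. Normexp gave 5 lower of 42 (1.81% of all genes), and dropping the filter on dim probes 7 lower of 62 (8.86%). That scaling put the median of all genes at 0.59 in liver and 0.17 in kidney, and normexp put it at -0.14 in liver. In kidney the lower count was 0 with that scaling (0.873% of all genes) and with normexp (0.798%), and 2 of 62 without the filter (3.66%). The kidney's higher count was 1 without the filter (4.4% of all genes) and with any spot above background sufficing (6.2%). In FAO cells the lower count ranged from 8 of 30 under normexp (4.84% of all genes) to 17 of 62 without the filter (8.23%). It was 9 under quantile normalization (5.34%) and 10 under the other scalings, the deposited values included (6.05% to 6.27%). The higher count there was 0 under normexp (3.27% of all genes) and with the second brightest probe (4.05%), and 2 without departing blocks (4.04%). It was 4 of 36 with any spot sufficing (7.27%) and 6 of 62 without the filter (6.03%). Between control liver and kidney, the members lower in liver numbered 3 under the percentile of all probes, the median of detected probes, normexp and the deposited log2 values. Of all genes, 19.1% to 21.1% were lower under these. Without the filter 13 of 62 members and 32.2% of all genes were lower. Between FAO cells and liver, 1 of 43 was higher under normexp, where 17.2% of all genes were. Causes were not tested. No paired analysis was possible because each group is 1 array. Leaving out a replicate was likewise impossible. Signals near background make bounds of 5 FAO, 2 liver and 1 kidney values.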
